A study of Mus musculus with 9 samples.

Results

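The comparison set LSK cells from 3 mice immunized for experimental autoimmune encephalomyelitis (EAE) against LSK cells from 3 naive mice, over every gene of 1 deposited table. LSK cells are bone marrow cells sorted as negative for lineage markers and positive for Sca1 and cKit, a gate that holds stem cells and multipotent progenitors. All mice were C57BL/6. The EAE mice had received complete Freund's adjuvant with residues 35 to 55 of myelin oligodendrocyte glycoprotein (MOG) and were taken 3 days later, and the naive mice were taken at day 0 without immunization. Without a group that received only adjuvant, its part and that of the peptide cannot be told apart. The 6 libraries compared are part of 9, of which the other 3 came from immunized mice given SR59230A, a β3-adrenergic antagonist, for 3 days. Those 3 libraries also entered the scaling, the filter on low values, the terms of the fit and the shared estimate of spread. The labels describe each library as a separate mouse, and replicate numbers are only names.

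Blood stem cells give rise to multipotent progenitors that are biased towards myeloid, lymphoid or erythroid and megakaryocyte fates while still inside the LSK gate. Commitment to the granulocyte and monocyte fates is driven by transcription factors such as PU.1, C/EBPα and IRF8, and its first products include the proteases of the azurophil granule, which neutrophils later use against microbes. Infection and adjuvants are known to push progenitors towards myeloid output, a response named emergency myelopoiesis. EAE is a mouse model of multiple sclerosis, in which T cells primed against myelin later enter the central nervous system with monocytes.

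The deposited table holds whole numbers that had been adjusted and are no longer read counts, so no depth or counting interval can be given. They summed to between 8641735 and 10387955 per library. Values are given below as scaled adjusted values in the order of replicates 1, 2 and 3, and a log2 change is EAE minus naive on the log2(value + 1) scale, ± its standard error (SE), a scale that understates the change of low genes. A gene is said to rise or fall where its adjusted p was under 0.05 (limma-trend with Benjamini-Hochberg adjustment over all genes tested). Of 13018 genes tested, 1853 passed (percent called 14.2), of which 1189 rose (9.13%) and 664 fell (5.1%). All EAE libraries lay above all naive libraries for 21% of the tested genes and below them for 18.4%, so separated groups alone are common here. The changes were mostly small: 719 of the rises and 261 of the falls were under 1.5-fold, and 74 rises and 22 falls reached 4-fold. On the first principal component, with 45.6% of the variance, naive libraries lay between -42.3 and -33.1 and EAE libraries between 11.5 and 21.9. On the third component EAE replicate 2, at -36, lay away from the other libraries.

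**Figure D1:**
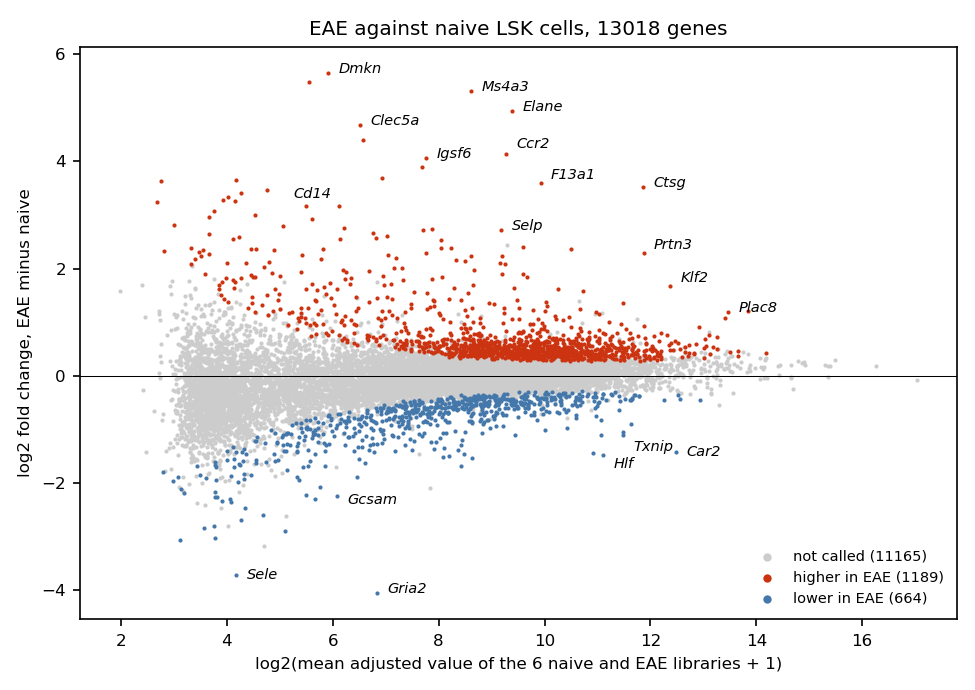
Each point is 1 of 13018 tested genes, placed by log2 of the mean adjusted value + 1 of the 6 libraries (x axis) and the log2 fold change of EAE over naive mice (y axis). Red points are the 1189 genes called higher, blue points the 664 called lower, and the named genes reach from 5.65 for Dmkn to -4.05 for Gria2.

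The genes of the sort itself were checked first. Kit, the receptor for stem cell factor, was at 7235, 6845 and 6547 in the naive libraries and 4846, 5214 and 5286 in the EAE libraries. Ly6a, which encodes Sca1, was at 1439, 1741 and 1412 and 2038, 1881 and 2379. Both genes were high in all 6 libraries and neither pair of groups overlapped: Kit fell by 0.43 ± 0.09 and Ly6a rose by 0.46 ± 0.12. The call of Ly6a ended without naive replicate 1, with the 6 libraries alone and under every other scaling but upper-quartile scaling. Genes of other lineages were low, with Ms4a1 between 1.81 and 13.3 and Cd3g between 2.05 and 6.08. Itgam, which encodes the lineage marker CD11b, was at 659, 560.1 and 789 in naive and 1313, 1227 and 1406 in EAE libraries, a rise of 0.99 ± 0.15. The genes Cd3d, Cd3e, Hbb-bt and C1qa were not analysed here.

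Azurophil granule genes were the list with the highest share of rises, so the sequences just upstream of 5 of them are printed here for reference beside their values. Each is the stretch of 250 bases before the annotated start, 5′ to 3′ on the gene's strand, from RefSeq on GRCm38.p6. Capitals mark GAGGAA, the core of PU.1 sites, TTNCNNAA, a core of C/EBP sites, and TGTGGT, the core of RUNX sites, on either strand. The stretches are chr10:79886062-79886311 (plus strand, Elane), chr10:79879417-79879666 (plus strand, Prtn3), chr14:56102575-56102824 (minus strand, Ctsg), chr11:87793534-87793783 (plus strand, Mpo) and chr19:11640852-11641101 (minus strand, Ms4a3).
Elane: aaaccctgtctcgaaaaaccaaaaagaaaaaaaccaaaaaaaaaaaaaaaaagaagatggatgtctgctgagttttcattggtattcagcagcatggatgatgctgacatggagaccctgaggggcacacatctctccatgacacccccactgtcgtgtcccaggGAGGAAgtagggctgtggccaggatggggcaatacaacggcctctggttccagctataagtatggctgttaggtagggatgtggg
Prtn3: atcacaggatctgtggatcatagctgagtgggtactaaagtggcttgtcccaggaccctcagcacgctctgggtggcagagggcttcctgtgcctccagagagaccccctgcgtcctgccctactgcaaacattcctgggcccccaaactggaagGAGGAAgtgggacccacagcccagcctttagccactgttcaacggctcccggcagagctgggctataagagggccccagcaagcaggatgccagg
Ctsg: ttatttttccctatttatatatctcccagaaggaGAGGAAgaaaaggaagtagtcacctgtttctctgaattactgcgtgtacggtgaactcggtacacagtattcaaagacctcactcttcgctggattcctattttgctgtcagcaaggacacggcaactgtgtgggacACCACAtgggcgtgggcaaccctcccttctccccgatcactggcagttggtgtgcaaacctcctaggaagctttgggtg
Mpo: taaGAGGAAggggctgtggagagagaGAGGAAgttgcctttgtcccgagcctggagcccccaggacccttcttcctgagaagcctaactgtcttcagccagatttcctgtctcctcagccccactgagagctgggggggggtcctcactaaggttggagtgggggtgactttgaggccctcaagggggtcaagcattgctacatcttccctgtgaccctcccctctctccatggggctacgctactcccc
Ms4a3: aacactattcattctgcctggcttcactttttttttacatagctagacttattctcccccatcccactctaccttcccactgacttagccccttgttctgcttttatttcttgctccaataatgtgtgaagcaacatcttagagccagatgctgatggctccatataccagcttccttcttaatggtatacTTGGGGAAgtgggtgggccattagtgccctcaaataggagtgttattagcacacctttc

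Of the 13 azurophil granule genes, 9 had an entry in the RefSeq promoter table, which covers 250 bases before to 50 after each start. These 9 genes had 10 entries, and a gene was counted if any of its entries held the motif. GAGGAA stood in the entries of 7 of these 9 genes (7 of the 10 entries), against 28.3% of all 32851 entries. TTNCNNAA was found in 4 of 9 (40.7% of all entries), TGTGGT in 3 of 9 (16.8%) and AACNG, the core of MYB sites, in 8 of 9 (80.3%). By entries the last 3 counts were 4, 3 and 9 of 10. In the printed stretches, Elane and Prtn3 hold 1 GAGGAA each, Ctsg 1 beside 1 TGTGGT match, Mpo 2, and Ms4a3 none beside 1 TTNCNNAA match. The capital motifs do not overlap each other in these 5 stretches. A match is a description of letters and was not tested for binding.

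Ms4a3, a membrane protein gene that marks granulocyte-monocyte progenitors, was at 15.2, 20.9 and 19.7 in the naive libraries and 614, 928 and 745 in the EAE libraries. Every EAE library was more than an order of magnitude above every naive library, and the gene rose by 5.30 ± 0.15 (adjusted p = 5.3e-09 with Benjamini-Hochberg adjustment, limma-trend). Elane, which encodes neutrophil elastase, was at 30.4, 66.3 and 33.8 and then 985, 1734 and 1156, a rise of 4.93 ± 0.25. Replicate 2 was the highest of both groups for both genes. Ctsg, which encodes cathepsin G, was already well above 0 in naive mice at 470.3, 740.1 and 568 and reached 6105, 9054 and 5316. Prtn3, the gene of proteinase 3, went from 1098, 1368 and 1348 to 6162, 7268 and 5239, and Mpo, the myeloperoxidase gene, from 171, 222 and 245 to 1011, 1179 and 614. None of the 3 overlapped between the groups, with rises of 3.53 ± 0.18, 2.30 ± 0.12 and 2.10 ± 0.22. In these bulk libraries, more cells of a type and more RNA per cell cannot be told apart.

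Among the 13 tested azurophil granule genes were 8 rises and no fall, with a median log2 change of 1.30 against -0.003 over all tested genes. The others that rose were Cst7, which encodes an inhibitor of cysteine proteases, by 1.69 ± 0.15, the serine protease gene Prss57 by 1.30 ± 0.15 and Ctsc, whose product activates the granule proteases, by 0.33 ± 0.10. The call of Ctsc was marginal and ended without naive replicate 1 or 3, without EAE replicate 2 or 3 and under every other scaling, among other settings. Srgn, which encodes the proteoglycan that packs granule proteins, had a change of 0.40 ± 0.14, and the other 4 members, Serpinb1a and Cd63 among them, lay between -0.07 and 0.24. These 5 did not pass. The summed share of the list in the library total was 0.22% to 0.247% in naive and 0.38% to 0.463% in EAE libraries.

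Markers of mature neutrophils, cells outside the gate, varied between libraries of the same group. S100a8, a calcium-binding protein gene of neutrophils and monocytes, was at 642, 482 and 1306 in the naive libraries and 2759, 728 and 3682 in the EAE libraries. EAE replicate 2 lay inside the naive range, as it did for Ngp, a secondary granule gene, at 935, 645 and 1774 and 3057, 811 and 4686. Of 20 tested mature neutrophil genes, 4 rose and 1 fell, with a median of 1.05, and the log2 change was above 0 in 18. Without EAE replicate 2, 11 rose. Hp, the haptoglobin gene, rose in all 3 libraries, from 22.3, 26.5 and 26.3 to 311, 441 and 398 (log2 change 3.89 ± 0.16), and the chemokine receptor gene Cxcr2 rose by 2.80 ± 0.35 from 8.11, 5.69 and 8.45 to 44.2, 58.3 and 68.8. Anxa1, which encodes annexin A1, rose by 0.76 ± 0.12, and Lcn2, which encodes the iron-scavenging lipocalin 2, by 1.98 ± 0.45, a call that ended without naive replicate 2. Padi4, whose enzyme citrullinates histones, fell by 0.47 ± 0.10. The list's summed share was 0.0686% to 0.136% in naive and 0.0902% to 0.238% in EAE libraries, so it overlapped between the groups, no member was at 0 in all 6 libraries, and Ly6g was at most 20.8. The part of such cells in the other myeloid results was not tested.

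Monocyte genes rose in larger number. Ccr2, the receptor that brings monocytes to inflamed tissue, was at 58.8, 56.9 and 89.2 in the naive and 1145, 1088 and 1283 in the EAE libraries, with little spread in either group. F13a1, which encodes the A subunit of coagulation factor XIII, was at 146, 153 and 137 and 1223, 2355 and 1820. Cd14, the co-receptor for bacterial lipopolysaccharide, was at 14.2, 11.4 and 12.2 and 77.7, 144 and 150.1. These are rises of 4.13 ± 0.14, 3.59 ± 0.19 and 3.16 ± 0.30, with EAE replicate 1 the lowest EAE library for F13a1 and Cd14. The 18 tested monocyte genes gave 10 rises and no fall, with a median of 1.03. The perforin-like gene Mpeg1 (1.94 ± 0.22), the MD-1 gene Ly86 (1.83 ± 0.30), the phospholipase-family gene Pld4 (1.28 ± 0.17), Tifab (1.11 ± 0.13) and Emb, which encodes embigin (0.69 ± 0.10), were among them, as was Ms4a6c (1.84 ± 0.13), one of a family of similar genes whose reads may not be separable. Cx3cr1, a receptor of patrolling monocytes and of dendritic cell progenitors, was at 11.2, 18 and 10.3 and 25.3, 21.5 and 31.3 and did not pass, and the fibronectin gene Fn1 had a change of -0.84 ± 0.53 without passing. The list's share was 0.122% to 0.139% in naive and 0.21% to 0.222% in EAE libraries. None of 9 tested macrophage genes passed, with a median of -0.72, and 2 fell without naive replicate 2. Of 11 dendritic cell genes, the lectin gene Clec10a rose by 2.19 ± 0.21 and 3 genes fell, a count of falls of 1 without naive replicate 1 or 3 or EAE replicate 2. Without EAE replicate 2 the rises were 3.

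Receptors that myeloid cells use to sense their surroundings were among the largest rises. Clec5a, which encodes a lectin that signals through DAP12, was at 5.07, 4.74 and 8.45 in naive and 166, 152 and 205 in EAE libraries. Igsf6, an immunoglobulin-superfamily gene, was at 26.4, 14.2 and 33.8 and 308, 468 and 451, and Trem3, another DAP12-coupled receptor gene, at 17.2, 10.4 and 25.4 and 200.5, 249 and 225. None of the 3 was above 33.8 in a naive library and all 3 were far higher in every EAE library, with rises of 4.68 ± 0.25, 4.07 ± 0.28 and 3.69 ± 0.29. Card9, the adaptor that links lectin receptors to NF-kB and is needed for responses to fungi and mycobacteria, was at 465, 417 and 539 and 2123, 2823 and 2339, a rise of 2.37 ± 0.14. Myeloid activating and inhibitory receptor genes gave 10 rises and no fall among 21, with a median of 1.02. The inhibitory receptor gene Siglece rose by 2.25 ± 0.37. The Fc receptor genes Fcgr2b and Fcgr3, which are similar in sequence, rose by 1.80 ± 0.15 and 1.71 ± 0.26. The adaptor genes Tyrobp and Fcer1g rose by 0.69 ± 0.14 and 0.34 ± 0.10, and the call of Fcer1g ended without naive replicate 1, with the 6 libraries alone and under every other scaling. Trem1 was at 98.3, 241 and 49.8 and 256, 699 and 589, so that naive replicate 2 nearly met EAE replicate 1, and its call ended without EAE replicate 2.

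Of 25 tested microbial pattern receptor genes, 9 rose and 1 fell, with a median of 0.19. Clec7a, which encodes the β-glucan receptor dectin-1, was at 33.5, 23.7 and 26.3 and 71.3, 149 and 127, a rise of 1.98 ± 0.30. Clec4d and Clec4e, which encode the mycobacterial cord factor receptors MCL and Mincle, rose by 1.62 ± 0.24 and 0.79 ± 0.14, the latter from 106, 97.6 and 115 to 182, 180.1 and 189 with almost no spread among the EAE libraries. Tlr1 and Tlr9, which encode sensors of bacterial lipopeptides and of unmethylated DNA, rose by 2.18 ± 0.45 and 1.12 ± 0.22, Tlr1 from at most 3.76. Tlr8, an RNA sensor gene, rose by 2.30 ± 0.65 from low values, a call that ended without naive replicate 1 or 3 or EAE replicate 2 or 3. Tlr2 and Tlr4 had changes of 0.27 ± 0.26 and -0.10 ± 0.14 and did not pass. Casp1, the inflammasome protease gene, rose by 0.51 ± 0.10, and Cd180, which restrains TLR4 signalling, fell by 0.53 ± 0.12. Downstream, 5 of 26 TLR, IL-1 and NF-kB signal genes rose and 3 fell: Bcl3, an NF-kB cofactor gene, went from 143, 136 and 197 to 493, 363 and 421 (1.43 ± 0.16), the adaptor gene Myd88 rose by 0.79 ± 0.10, and the NF-kB inhibitor gene Tnip3 fell by 1.24 ± 0.15.

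Of 31 tested colony-stimulating factor and cytokine receptor genes, 10 rose and 1 fell, with a median of 0.25. Csf1r, the receptor for macrophage colony-stimulating factor, was at 68.9, 47.4 and 113 in naive and 407, 323 and 328 in EAE libraries. Csf2rb, the shared β chain of the GM-CSF, IL-3 and IL-5 receptors, was at 318, 258 and 451 and 1166, 869 and 1078, and its near copy Csf2rb2 at 201, 136 and 302 and 1034, 738 and 1119. No library overlapped, and the rises were 2.29 ± 0.25, 1.63 ± 0.18 and 2.24 ± 0.24, with the division of reads between the last 2 uncertain. Il4ra, a receptor chain for IL-4 and IL-13, rose by 0.93 ± 0.12 and Lifr, a receptor of leukemia inhibitory factor, by 1.70 ± 0.24. The list's count of rises was 6 without naive replicate 1 or without scaling and 5 with equal library sums. Csf3r, the G-CSF receptor gene, had 0.32 ± 0.10, a marginal call that ended without naive replicate 1 or 3, without EAE replicate 1 or 3 and under every other scaling. Ifngr1, an interferon-gamma receptor gene, had 0.32 ± 0.11 and did not pass. Of 21 JAK, STAT and SOCS genes, 3 rose and none fell, 14.3% called against 14.2% of all tested genes. The kinase gene Pim1, a STAT5 target, went from 8756, 8621 and 9167 to 18880, 19670 and 23110 (1.22 ± 0.12). Pim2 rose by 1.26 ± 0.12 and the feedback inhibitor gene Socs3 by 2.10 ± 0.37 from at most 8.53.

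Of 26 tested myeloid transcription factor genes, 10 rose and 1 fell, with a median of 0.31. Irf8, which directs monocyte and dendritic cell fates, was at 1194, 1404 and 1283 in naive and 2889, 2319 and 3476 in EAE libraries, a rise of 1.15 ± 0.16. Cebpa, needed to enter the granulocyte-monocyte fate, was at 366, 404 and 428 and 826, 843 and 688, and Cebpd, an acute-phase factor, at 69.9, 54 and 66.7 and 166, 236 and 226. Neither overlapped, with rises of 0.98 ± 0.11 and 1.71 ± 0.19. Id1, an inhibitor of E proteins, rose by 1.87 ± 0.18 and Zeb2 by 0.64 ± 0.09. Cebpe, which drives the later granule program, had the list's largest rise (2.24 ± 0.60) from at most 5.69, a call that ended without naive replicate 1 or EAE replicate 1. Spi1, the PU.1 gene, was high in both groups at 1806, 1884 and 1855 and 2257, 2437 and 2199. Its rise of 0.31 ± 0.09 ended without naive replicate 1 or EAE replicate 2, with the 6 libraries alone and under every other scaling. Without naive replicate 1 the list's count of rises was 6. Gfi1 and Myb had changes of 0.31 ± 0.10 and 0.29 ± 0.11 and did not pass, and Irf5 fell by 0.58 ± 0.12.

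**Figure D2:**
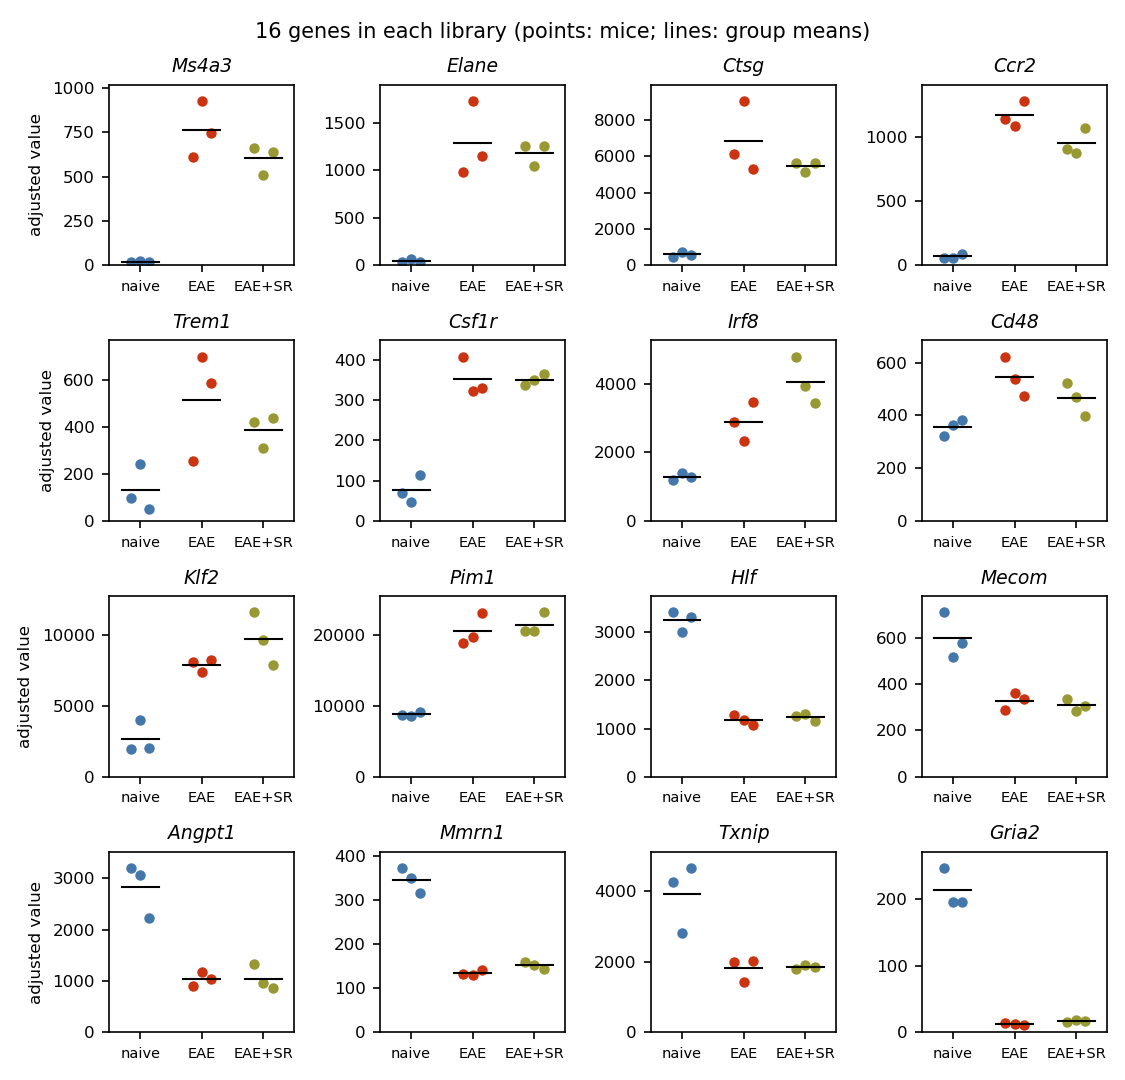
Adjusted values (y axes, linear from 0) of 16 genes in each of 9 libraries, with 3 naive, 3 EAE and 3 SR59230A-treated EAE mice (EAE+SR) as points and group means as lines. The EAE points of Ms4a3, between 614 and 928, stand far above the naive points, and those of Hlf, between 1070 and 1278, below them, while Trem1 shows naive replicate 2 close to EAE replicate 1.

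Among 28 adhesion and chemoattractant receptor genes, 9 rose and 3 fell, with a median of 0.11 that became -0.01 with equal library sums. The chemokine receptor gene Ccr1 went from 16.2, 12.3 and 25.4 to 95.7, 80.8 and 101 (2.37 ± 0.30). S1pr3, a sphingosine 1-phosphate receptor gene, rose by 1.38 ± 0.16, and Cxcr4, the receptor that holds cells in the marrow, rose by 0.40 ± 0.08, a call lost without scaling and with quantile normalization. Itga9, which encodes integrin α9 (-1.29 ± 0.25), and S1pr4 (-0.41 ± 0.08) fell. Of 7 NADPH oxidase genes, 3 rose: Cybb, the catalytic subunit gene of the respiratory burst, from 85.2, 85.3 and 108 to 268, 224 and 335 (1.56 ± 0.23), the proton channel gene Hvcn1 (0.96 ± 0.14) and Ncf4 (0.39 ± 0.11), the last of which was lost without naive replicate 1 and under every other scaling.

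Of 19 secreted cytokine and lipid mediator genes, 6 rose and 1 fell. C3, the central complement component, was at 61.8, 32.2 and 105 in naive and 416, 381 and 397 in EAE libraries, where the 3 mice were close together, a rise of 2.73 ± 0.34. Ccl9, a myeloid chemokine gene, went from 1583, 1429 and 1769 to 3794, 5008 and 3489 (1.36 ± 0.14), and Osm, which encodes oncostatin M, rose by 1.13 ± 0.15. The prostaglandin synthase gene Ptgs1 fell by 0.45 ± 0.13, a call that ended without naive replicate 1 or 3 or EAE replicate 3. Il1b and Tnf had changes of 0.61 ± 0.33 and -0.34 ± 0.33 and did not pass. Hdc, the histidine decarboxylase gene that makes histamine and marks myeloid-biased stem cells and basophils, rose by 1.95 ± 0.26. Beside it, the basophil protease gene Mcpt8 rose from 27.4, 42.6 and 23.5 to 138, 279 and 159.5 (2.58 ± 0.28), and the eosinophil ribonuclease gene Ear6 fell by 2.69 ± 0.61. Of 14 mast cell, basophil and eosinophil genes, 3 rose and 2 fell, with 1 fall without naive replicate 1 or 2.

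Stem-cell transcription factor genes moved the other way. Hlf, which encodes a factor that keeps stem cells from cycling and marks them, was at 3412, 3009 and 3324 in naive and 1278, 1175 and 1070 in EAE libraries, a log2 change of -1.48 ± 0.10 (adjusted p = 3.76e-06 with Benjamini-Hochberg adjustment, limma-trend). Mecom, needed for stem-cell maintenance, was at 708, 515 and 576 and 287, 362 and 336. Hoxa9, a homeobox gene of primitive progenitors, was at 2384, 2417 and 2488 and 1811, 1714 and 1618. No library of one group reached the other for these 3 genes, and Mecom and Hoxa9 fell, with log2 changes of -0.87 ± 0.14 and -0.51 ± 0.09. Of 22 tested genes of the list, 11 fell and none rose, with a median of -0.44, and the log2 change was below 0 in all 22. Klf12, Mycn and Prdm16 fell, with log2 changes of -1.03 ± 0.19, -0.98 ± 0.19 and -0.63 ± 0.13. Gata2, Tal1 and Fli1, factors shared with later progenitors, had changes of -0.17 ± 0.12, -0.20 ± 0.13 and -0.27 ± 0.09 and did not pass. Of 8 HoxA and HoxB genes 2 fell and none rose. The stem-cell transcription factor list held 0.45% to 0.473% of the library total in naive and 0.308% to 0.372% in EAE libraries.

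Of 25 stem-cell surface and niche-signal genes, 10 fell and 2 rose, with a median of -0.29. Angpt1, a ligand of the Tie2 receptor made by stem cells, was at 3192, 3058 and 2222 in naive and 895, 1170 and 1039 in EAE libraries. Mmrn1, which encodes multimerin 1, was at 373, 351 and 317 and 133, 131 and 143. The groups were well apart for both genes, which fell, with log2 changes of -1.45 ± 0.18 and -1.36 ± 0.13. The guidance receptor gene Robo4 (-1.06 ± 0.13), the channel gene Trpc6 (-1.21 ± 0.19), the stem-cell marker gene Fgd5 (-0.63 ± 0.15) and Procr, which encodes the EPCR receptor used to isolate stem cells (-0.46 ± 0.10), fell as well. Slamf1 and Cd34 had changes of 0.30 ± 0.19 and -0.22 ± 0.10 and did not pass, and Itga6 and Cxcr4 rose. Among the genes that divide multipotent progenitors into subsets was Cd48, a marker that stem cells lack. Cd48 rose from 323, 364 and 384 to 623, 539 and 472 (0.61 ± 0.14), a call lost without scaling and with equal library sums. Itga2b, which encodes CD41, rose by 0.57 ± 0.11, and Flt3, high in the lymphoid-primed subset, fell by 0.44 ± 0.10 from 5496, 5534 and 5814 to 4479, 3713 and 4239.

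Quiescence and FOXO genes were divided. Txnip, which encodes a brake on glucose uptake that is high in resting stem cells, was at 4274, 2802 and 4652 in naive and 1988, 1432 and 2019 in EAE libraries. Foxo3 went from 2226, 2305 and 2243 to 1741, 1528 and 1667, and its target gene Sesn1 from 620.4, 576 and 659 to 387, 339 and 327. These 3 fell, with log2 changes of -1.10 ± 0.18, -0.46 ± 0.09 and -0.82 ± 0.11. Klf2, a quiescence factor of lymphocytes, went up instead, from 1939, 4009 and 2012 to 8078, 7426 and 8261 (1.67 ± 0.24), with naive replicate 2 the highest of the naive libraries. Of 22 tested genes, 6 fell and 3 rose, and the count of rises was 1 without naive replicate 1. Cdkn1c, which encodes the cyclin-dependent kinase inhibitor p57, fell by 0.84 ± 0.24, a call that ended without naive replicate 1 or EAE replicate 1, without scaling and with quantile normalization.

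Of 22 tested early lymphoid genes, 11 fell and 2 rose, with a median of -0.58. The list's summed share overlapped between the groups, at 0.433% to 0.473% in naive and 0.417% to 0.516% in EAE libraries. Tox, a lymphoid transcription factor gene, was at 458, 426 and 407 in naive and 157, 126 and 182 in EAE libraries. Ltb, the lymphotoxin β gene, was at 516, 501 and 531 and 220.3, 143 and 212, and Rag1, a subunit gene of the antigen receptor recombinase, at 107, 99.5 and 185 and 73.1, 21.5 and 49. EAE replicate 2 was the lowest library for all 3. Tox and Ltb fell, with log2 changes of -1.49 ± 0.15 and -1.46 ± 0.17, and Rag1 had -1.54 ± 0.40, a call lost without naive replicate 3 or EAE replicate 2. The IgM receptor gene Fcmr (-2.60 ± 0.44), the B cell scaffold gene Bank1 (-1.11 ± 0.24), the kinase gene Lck (-0.55 ± 0.11) and the adaptor gene Lax1 (-0.76 ± 0.11) were among the 11. The thymus-homing receptor gene Ccr9 fell by 1.42 ± 0.40, a call that ended without naive replicate 1, 2 or 3 and with the 6 libraries alone. Cd7, a surface gene of lymphoid progenitors, rose by 1.67 ± 0.31.

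Other early lymphoid genes did not pass. Dntt, the terminal transferase gene and the most abundant of the list, was at 14090, 15570 and 16030 in naive and 18190, 13600 and 19140 in EAE libraries, which overlapped, and had a change of 0.14 ± 0.15. Il7r, the interleukin 7 receptor gene, was at 316, 336 and 407 and 423, 188 and 506, with EAE replicate 2 the lowest of the 6. Of 24 lymphoid transcription factor genes, 4 fell and 1 rose, and 2 fell without naive replicate 1. Pax5, the B lineage commitment factor, went from 108, 91 and 206 to 65, 15.3 and 37.5, a log2 change of -1.89 ± 0.46 over values that varied with the library in both groups. Lef1, a Wnt effector gene, had the largest fall of the list (-2.17 ± 0.60) over values of at most 25.4, a call that ended without naive replicate 1 or 3, and the cofactor gene Lmo4 rose by 0.38 ± 0.09, a call lost under every other scaling but upper-quartile scaling. Ikzf1, the Ikaros gene, had -0.32 ± 0.13 and did not pass. Of 6 T cell genes 3 fell, among them Cd247, the CD3 zeta chain gene (-1.12 ± 0.24), and of 9 B and plasma cell genes 2 fell, the IgE receptor gene Fcer2a (-1.86 ± 0.41) and Sdc1, the syndecan 1 gene (-0.90 ± 0.15). Klrb1c, a natural killer receptor gene with close relatives, rose from 29.4, 29.4 and 38.5 to 94.8, 97.2 and 78.2 (1.46 ± 0.21), and Nkg7 rose by 0.54 ± 0.11, a call lost without scaling. The summed share of the 9 natural killer genes in the table was 0.00719% to 0.00837% in naive and 0.00953% to 0.0114% in EAE libraries.

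**Figure D3:**
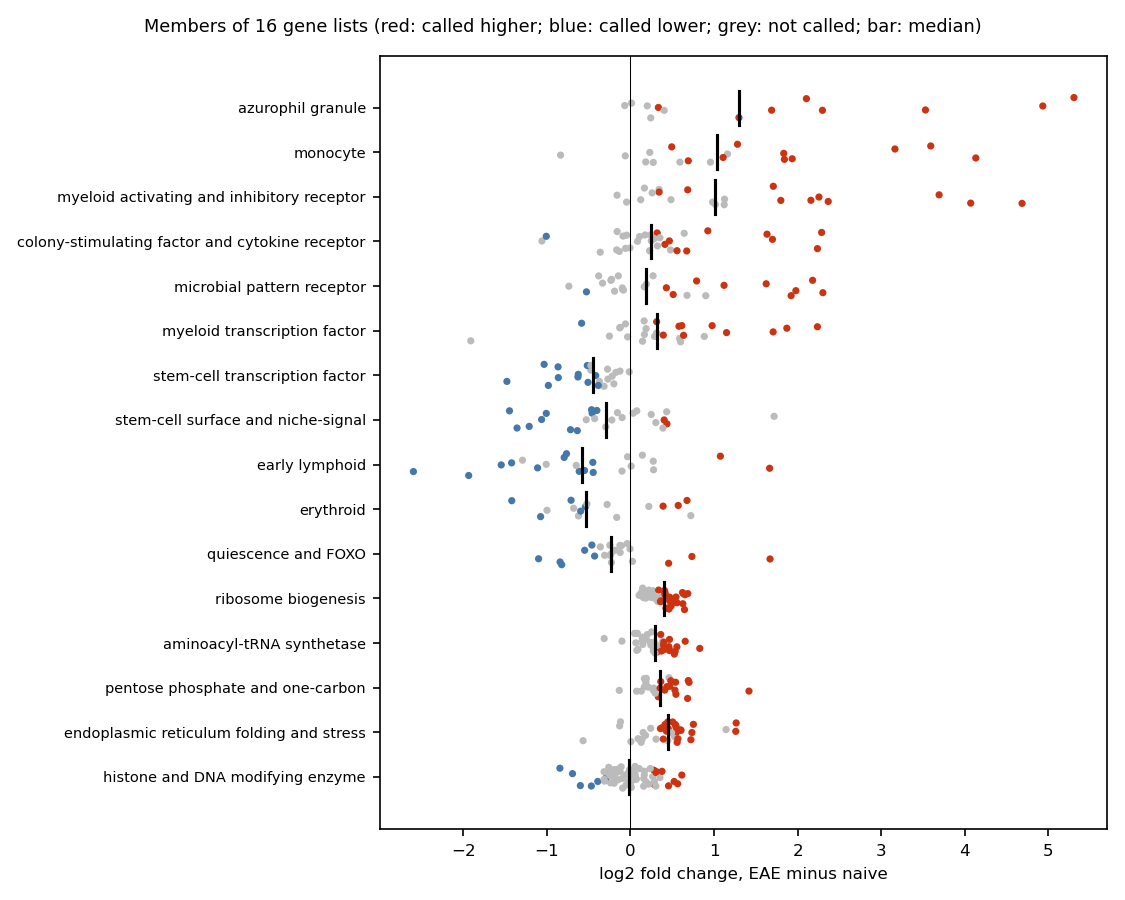
Log2 fold changes (x axis, EAE minus naive) of the tested members of 16 gene lists (rows), with vertical spread added for sight, red for members called higher, blue for called lower, grey for not called, and a bar at each list's median. The medians run from 1.30 for azurophil granule genes to -0.58 for early lymphoid genes.

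Erythroid genes moved both ways. Car2, a carbonic anhydrase gene active in stem cells and erythroid progenitors, was at 8921, 7889 and 8125 in naive and 3210, 3212 and 2945 in EAE libraries, a log2 change of -1.42 ± 0.09. Car1 was at 540.3, 546 and 542 and 332, 337 and 329, with very little spread, and fell by 0.71 ± 0.10. Tfrc, the transferrin receptor gene, which also serves dividing cells, rose from 725, 830.2 and 749 to 1131, 1137 and 1148 (0.57 ± 0.09). Of 16 tested erythroid genes 5 fell and 3 rose. Gata1, the erythroid and megakaryocyte factor gene, had the largest of these rises (0.68 ± 0.18), a call that ended without naive replicate 1, without scaling, with equal library sums and with the 6 libraries alone. The list's share was 0.138% to 0.156% in naive and 0.0824% to 0.0877% in EAE libraries. Car2 made up most of that sum in the naive libraries, so the lower share in EAE libraries mainly follows that gene. Of 20 iron and heme genes 8 rose and none fell, led after Lcn2 by Alas1, the housekeeping enzyme of heme synthesis, from 255, 326 and 316 to 824, 788 and 666 (1.35 ± 0.12).

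Megakaryocyte and platelet genes gave 3 rises and 3 falls among 20, and 6 falls without EAE replicate 2. Selp, which encodes the adhesion molecule P-selectin, was at 143, 142 and 177 in naive and 955, 1120 and 933 in EAE libraries, a rise of 2.71 ± 0.11 and one of the smallest adjusted p of all genes (1.14e-07 with Benjamini-Hochberg adjustment, limma-trend). Thbs1, the thrombospondin gene, fell by 1.89 ± 0.29. Platelet granule and receptor genes did not pass, with Pf4 at -0.52 ± 0.32, Gp9 at -0.54 ± 0.33 and Vwf at 0.43 ± 0.16. Of 15 endothelial and stromal genes 5 fell and 1 rose, with 2 falls without naive replicate 1 or 3 and 8 without EAE replicate 1. Emcn and Tie1, genes shared by endothelium and stem cells, fell, with log2 changes of -0.60 ± 0.12 and -0.72 ± 0.15. The endothelial adhesion gene Sele had the list's largest fall (-3.71 ± 0.87) over values of at most 62, and the pericyte receptor gene Pdgfrb rose by 0.39 ± 0.09, a call lost without scaling, with equal library sums and with quantile normalization. Cdh5, the VE-cadherin gene of endothelium, was at 35.5, 18.9 and 123 and 17.2, 3.07 and 2.08 and its call ended without naive replicate 1 or 3 or EAE replicate 2 or 3. The summed share of this list overlapped, at 0.0514% to 0.0689% and 0.0487% to 0.0615%, and no member was at 0 in all 6 libraries. The part of such cells in the other results was not tested.

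The list of DNA replication genes held 16 rises and no fall among 42, with a median of 0.30, and that of G2/M and mitosis genes 21 rises and no fall among 40, with a median of 0.37. Rrm2, the regulated subunit gene of ribonucleotide reductase, was at 702, 639.7 and 766 in naive and 1300, 1389 and 1333 in EAE libraries, a rise of 0.94 ± 0.09. The lowest counts of rises in the replication and mitosis lists under the other scalings were 8 and 9. Tyms, the thymidylate synthase gene, rose by 0.62 ± 0.12, the origin gene Orc6 by 0.67 ± 0.14, the mitotic kinase gene Plk1 by 0.62 ± 0.11, the survivin gene Birc5 by 0.61 ± 0.09 and the mitotic motor gene Kif2c by 0.62 ± 0.10. Mki67, the proliferation marker gene, had 0.24 ± 0.10 and did not pass. Cdk6, the G1 kinase gene that sets how fast stem cells leave rest, went from 3321, 3892 and 3024 to 5245, 5956 and 6632 (0.81 ± 0.12), while the D cyclin gene Ccnd2 went from 1772, 1641 and 1770 to 1234, 1134 and 1205 and fell by 0.54 ± 0.09. Of 21 genes of that kind 1 rose and 4 fell, and 2 fell without naive replicate 1. Rises numbered 4 to 6 without naive replicate 2, EAE replicate 1 or 3 or SR59230A-treated replicate 1 or 3. Of 48 DNA repair genes 8 rose and 1 fell, and 5 rose without naive replicate 1 or EAE replicate 2. Fanca, of the Fanconi anemia pathway, rose by 0.66 ± 0.10, and Xrcc5, which encodes Ku80, fell by 0.79 ± 0.14. Of 24 p53 target and Bcl2 family genes 2 rose and none fell, 8.33% called against 14.2% of all tested genes. The 2 included Bak1, a pore-forming cell death gene, which rose by 0.46 ± 0.12. The count was 0 without naive replicate 1, 4 without naive replicate 2, 5 without EAE replicate 3, and 0 without scaling, with upper-quartile scaling and with equal library sums.

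Among 4 lists of protein synthesis and folding, between 17 of 39 and 25 of 43 members rose and none fell. Ribosome biogenesis genes gave 25 rises and no fall among 43, with a median of 0.41, and the log2 change was above 0 in all 43. Wdr75, of the small subunit processome, was at 711, 749.6 and 682 in naive and 1047, 1147 and 1253 in EAE libraries, a rise of 0.69 ± 0.10. Npm1, the abundant nucleolar chaperone gene, went from 10210, 11530 and 10740 to 15350, 15170 and 14330 (0.47 ± 0.11), a call lost under every other scaling but upper-quartile scaling. Of 39 aminoacyl-tRNA synthetase genes 17 rose and none fell, with Aars, for alanine, from 1190, 1125 and 1259 to 1975, 2428 and 1957 (0.83 ± 0.12) and Cars, for cysteine, by 0.66 ± 0.11. Endoplasmic reticulum folding and stress genes gave 21 rises and no fall among 37, with a median of 0.45: the cofactor gene Sdf2l1 rose by 1.26 ± 0.18, Manf by 0.74 ± 0.12 and the calcium-binding chaperone gene Calr by 0.72 ± 0.12. Hspa5, the BiP gene, was at 5121, 10520 and 5264 and 9624, 9704 and 7681, with naive replicate 2 above every EAE library, and did not pass. Of 25 heat shock and chaperone genes 13 rose and none fell, many of them subunits of the chaperonin CCT such as Cct8 (0.61 ± 0.11), with the largest change in the co-chaperone gene Hsph1 (0.69 ± 0.16).

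The counts of these lists moved with the scaling. With equal library sums, a scaling that shifted the median of all genes to -0.122, 14 ribosome biogenesis, 9 synthetase, 14 endoplasmic reticulum and 5 chaperone genes rose, and without scaling 11, 9, 13 and 4. With the summed share of chemosensory receptor genes, described below, as a term, the counts were 0, 1, 0 and 0. The medians of the 4 lists stayed above 0 under every alternative run, with lowest values of 0.29, 0.17, 0.07 and 0.21. Changes also followed expression level: the median log2 change was -0.328 for genes with a mean under 20, 0.002 between 100 and 500, and 0.174 from 2000 upwards. The part of expression level in the small rises of these abundant genes was not tested.

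**Figure D4:**
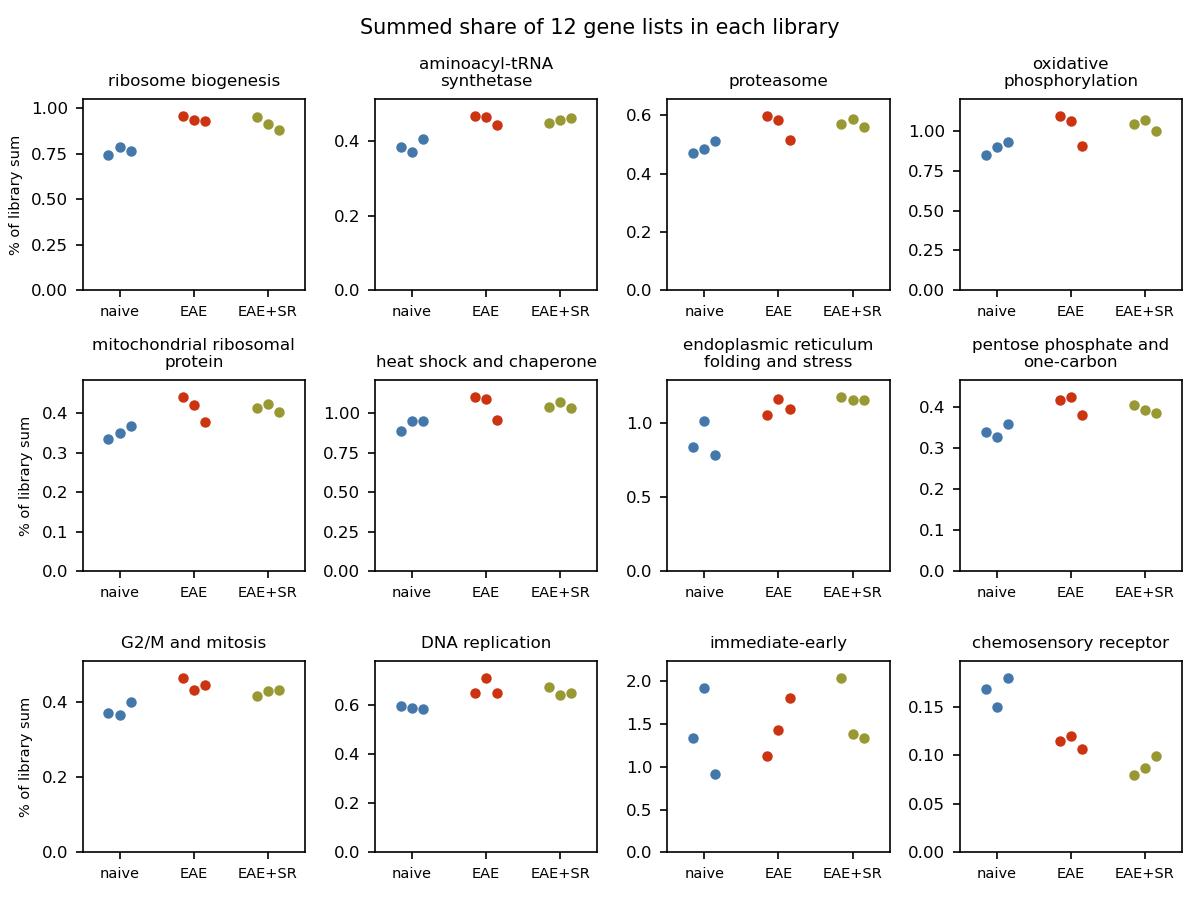
Summed share of 12 gene lists in each library (y axes, percent of the library's deposited sum, linear from 0), for 3 naive, 3 EAE and 3 SR59230A-treated EAE mice (points). Ribosome biogenesis genes held 0.746% to 0.791% in naive and 0.931% to 0.957% in EAE libraries, while immediate-early genes overlapped and chemosensory receptor genes were lower in EAE libraries.

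Mthfd2, the mitochondrial folate enzyme gene, was at 110.5, 146 and 132 in naive and 360.3, 347 and 323 in EAE libraries, a rise of 1.42 ± 0.14. Shmt2, the partner enzyme gene, rose by 0.69 ± 0.12, the CTP synthase gene Ctps by 0.68 ± 0.09 and Psat1, of serine synthesis, by 0.54 ± 0.10. Pentose phosphate and one-carbon genes gave 14 rises and no fall among 27, with a median of 0.36. The related amino acid gene Asns, for asparagine synthesis, rose by 1.26 ± 0.21. Ldha, the lactate dehydrogenase A gene, went from 4834, 6410 and 5008 to 9857, 11380 and 8945 (0.90 ± 0.13) while Ldhb fell by 0.70 ± 0.15. Of 28 glycolysis and hypoxia genes 5 rose and 2 fell, with 9 rises without EAE replicate 3 and 8 without SR59230A-treated replicate 1 or 3.

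Of 63 oxidative phosphorylation genes 17 rose, of 69 mitochondrial ribosomal protein genes 20 and of 40 proteasome genes 13, and none fell, with medians of 0.29, 0.32 and 0.25. Without EAE replicate 3 these counts were 42, 36 and 24, and without naive replicate 1 they were 9, 10 and 7. The summed share of oxidative phosphorylation genes was 1.09%, 1.06% and 0.902% in the EAE libraries and at most 0.932% in the naive libraries, so EAE replicate 3 lay within the naive range. The lowest counts under the other scalings were 5, 4 and 5. The largest changes were those of the complex III gene Uqcrq (0.65 ± 0.16), a call lost without naive replicate 1 and without scaling, of Mrps22 (0.72 ± 0.12) and of the proteasome assembly gene Psmg4 (0.66 ± 0.11). Cox5a, a complex IV gene, rose by 0.59 ± 0.10, Mrpl18 by 0.67 ± 0.09 and the proteasome lid gene Psmd6 by 0.59 ± 0.09. Of 43 lysosome and proton pump genes 10 rose and none fell, led by the protease gene Ctsz (0.99 ± 0.10), which went from 273, 306 and 296 to 574, 629 and 538. Of 30 cholesterol and fatty acid synthesis genes 4 rose and 2 fell, with 2 rises without naive replicate 3 or EAE replicate 2 and 8 without EAE replicate 3. The desaturase gene Fads2 rose by 0.73 ± 0.11 and the cholesterol exporter gene Abca1 fell by 0.50 ± 0.11. Of 29 antioxidant genes 3 rose and 1 fell, 13.8% called against 14.2% of all tested genes. The glutathione genes Gclm and Gsr rose by 0.77 ± 0.11 and 0.75 ± 0.12. The cystine transporter gene Slc7a11 had a larger rise (1.90 ± 0.57) over values of at most 27.6, a call that ended without naive replicate 1 or 3, without EAE replicate 2 or 3 and with 2 of the other scalings. Srxn1, the sulfiredoxin gene, fell by 1.27 ± 0.35, a call that ended without naive replicate 1 or 2. The 3 rises became 8 without EAE replicate 3, 6 without naive replicate 2 or SR59230A-treated replicate 1, and 5 without SR59230A-treated replicate 3.

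Interferon-stimulated antiviral genes gave 4 rises and no fall among 29, with a median of 0.11 that was 0 with equal library sums. Calls made up 13.8% of this list, against 14.2% of all tested genes. The count was 2 without naive replicate 1 and 8 without EAE replicate 2. Bst2, the tetherin gene, went from 700.4, 741 and 762 to 1081, 1060 and 985 (0.51 ± 0.09) and Oas2 rose by 0.82 ± 0.16, but Irf7 and Ifit1 had 0.32 ± 0.11 and 0.29 ± 0.17 and did not pass. Of 9 interferon-gamma-inducible GTPase genes Gbp3 rose, by 0.82 ± 0.10 (11.1% called), and 3 rose without EAE replicate 2. Of 10 MHC class II genes 2 fell: the class II transactivator gene Ciita, from 80.1, 80.5 and 74.2 to 44.2, 44 and 47.9 (-0.78 ± 0.19), lost with the 6 libraries alone, and H2-Ob (-0.73 ± 0.13). Class II falls were 5 without naive replicate 3 and 4 without EAE replicate 3. Among 19 MHC class I and immunoproteasome genes 3 rose and 3 fell. The 3 falls were all in the H2-Q cluster, whose genes are near-identical so that their values are uncertain, with H2-Q6 from 3807, 4932 and 2916 to 1655, 2116 and 1815 (-1.04 ± 0.16). H2-D1 and B2m had -0.10 ± 0.10 and -0.05 ± 0.11 and did not pass.

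Of 28 β-adrenergic and cAMP signal genes 4 fell and none rose, 14.3% called against 14.2% of all tested genes. Adcy9, an adenylate cyclase gene, went from 377, 341 and 342 to 209.5, 247 and 210.5, a log2 change of -0.67 ± 0.12, and Arrb1, the β-arrestin 1 gene, fell by 0.52 ± 0.12. Adrb3, the target of SR59230A, was at 4.05, 5.69 and 7.51 in naive and 2.71, 0 and 2.08 in EAE libraries, too low to be tested. Of 37 TGF-beta, Notch and Wnt signal genes 6 fell and 1 rose, and 2 fell without naive replicate 1. Lef1 and the Wnt receptor gene Fzd4 had log2 changes of -2.17 ± 0.60 and -1.42 ± 0.38, and the call of Fzd4 ended without naive replicate 1 or EAE replicate 1. Smad3 fell by 0.60 ± 0.14 and the ligand gene Tgfb1 rose by 0.42 ± 0.10, a call lost with equal library sums and with quantile normalization, while the TGF-beta receptor gene Tgfbr1 had -0.18 ± 0.16 and did not pass. Of 64 histone and DNA modifying enzyme genes 9 rose and 6 fell, with 4 rises without naive replicate 1 and 1 rise against 11 falls with equal library sums. The acetyltransferase gene Kat2a rose by 0.61 ± 0.18, a call that ended without naive replicate 1 or 3 or EAE replicate 3, and the deacetylase gene Hdac9 fell by 0.84 ± 0.19. Suv39h1, a heterochromatin methyltransferase gene, rose by 0.57 ± 0.09 and the de novo DNA methyltransferase gene Dnmt3b went from 866, 884 and 873 to 615, 585 and 538 and fell by 0.60 ± 0.10.

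Stress genes that respond within minutes of cell handling varied by library. Fos was at 10710, 18250 and 7105 in naive and 11910, 15600 and 18480 in EAE libraries, and Atf3 at 117, 735 and 50.7 and 507, 1095 and 1241. Naive replicate 2 was the highest naive library for both, above EAE replicate 1, and neither gene passed. Of 23 immediate-early genes 2 rose and none fell, 8.7% called against 14.2% of all tested genes. The count of rises was 6 without naive replicate 2 and 1 without naive replicate 1 or 3 or EAE replicate 2 or 3, and with the chemosensory share described below as a term 4 fell and none rose. Klf6, a member of both this and the quiescence list, rose by 0.74 ± 0.22, a call that ended without naive replicate 1 or 3, without any 1 EAE library and under every other scaling. The list had a summed share of 0.91% to 1.92% in naive and 1.12% to 1.8% in EAE libraries. Mt1, a metallothionein gene induced by zinc, glucocorticoids and inflammation, went from 71, 88.1 and 91.1 to 444, 567 and 323 (2.38 ± 0.18). Fkbp5 and Tsc22d3, further glucocorticoid targets, had 0.34 ± 0.09 and 0.13 ± 0.16. Of these Fkbp5 passed, a call lost without naive replicate 1, with the 6 libraries alone and under every other scaling.

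**Figure D5:**
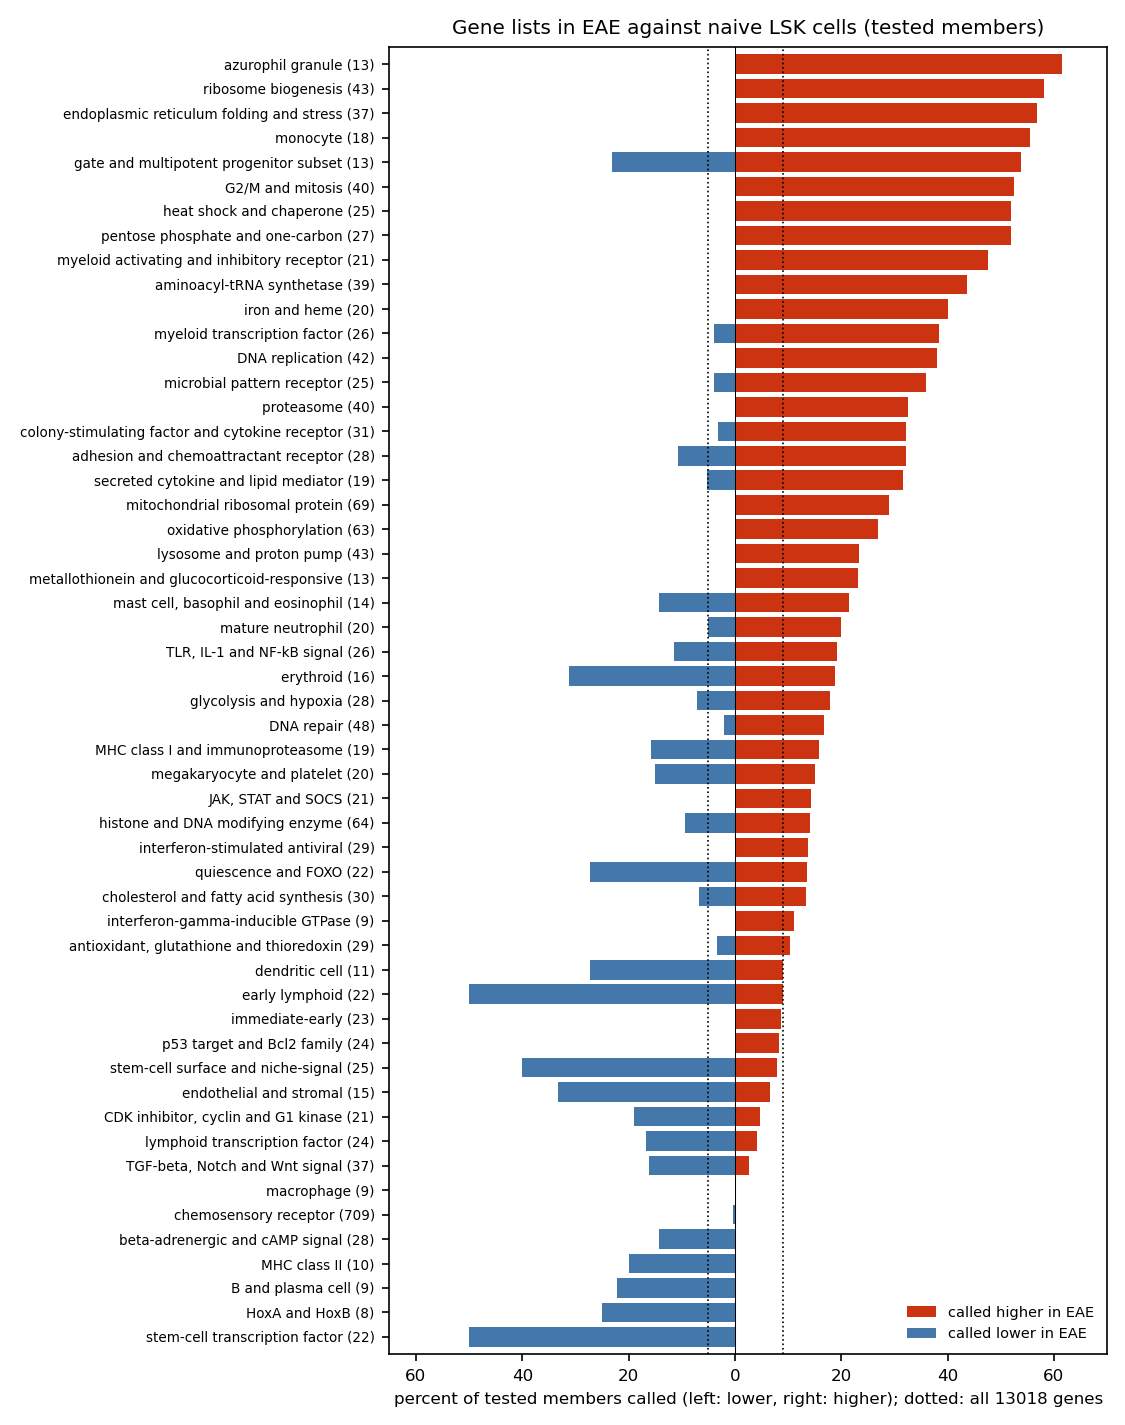
Percent of tested members called higher (red, right) and lower (blue, left) in EAE against naive mice, for each gene list with at least 8 tested members (rows, number tested in parentheses), with dotted lines at the 9.13% and 5.1% of all genes. Azurophil granule genes have the highest share of rises, and stem-cell transcription factor and early lymphoid genes the highest shares of falls.

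Further genes were named for the size of their change. Dmkn, which encodes the secreted epidermal protein dermokine, was near 0 in naive libraries (1.01, 1.9 and 0.939) and at 71.3, 174 and 106 in EAE libraries, the largest rise of a gene with a group mean of at least 100 (5.65 ± 0.36). Tmem215 was at 5.07, 13.3 and 5.63 and 128, 254 and 155 (4.40 ± 0.34). Emilin2, an extracellular matrix gene, Rab44, a large Rab GTPase gene of granulocytes and mast cells, and Vldlr, a lipoprotein receptor gene, rose by 2.39 ± 0.12, 2.40 ± 0.12 and 2.09 ± 0.10 with narrow spreads. Gria2, which encodes a subunit of the AMPA glutamate receptor, was at 246, 196 and 196 in naive and 13.5, 12.3 and 10.4 in EAE libraries, the largest fall of all (-4.05 ± 0.25), while its relative Gria3 rose by 0.84 ± 0.10. Both are among 5 tested neural genes, of which 1 rose and 2 fell, and 1 fell without naive replicate 1 or 2 or EAE replicate 2. Gem, a small GTPase gene, went from 526, 664 and 378 to 148, 157 and 175 (-1.68 ± 0.19), and Ebi3, which encodes a shared subunit of IL-27 and IL-35, from 611, 482 and 669 to 225, 244 and 151 (-1.53 ± 0.21). Gcsam, Lhcgr, which encodes the receptor of luteinizing hormone, Sytl4, Gimap8, Sdc4, Itsn1 and 8430408G22Rik fell, with log2 changes of -2.24 ± 0.25, -1.63 ± 0.25, -1.51 ± 0.16, -1.39 ± 0.13, -1.38 ± 0.15, -1.06 ± 0.11 and -1.40 ± 0.20.

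The SR59230A-treated mice were immunized as well, and their values are set beside those of the EAE mice here. Ms4a3 was at 663, 509.5 and 637 in the treated libraries and Elane at 1257, 1051 and 1259. Ccr2 was at 909, 877 and 1072, Hlf at 1268, 1309 and 1165, Gria2 at 15.3, 19.4 and 16.7 and Dmkn at 94.6, 83.6 and 131. The treated libraries lay below the EAE libraries for Ccr2 and above them for Gria2, and overlapped them for the other 4 genes. In the fit none of the 6 genes differed between treated and EAE libraries, with an adjusted p of 0.998 for each (limma-trend with Benjamini-Hochberg adjustment).

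The split of the calls into rises and falls depended on the scaling. Of the calls, 64.2% were rises, against 51.1% with quantile normalization (833 higher, 796 lower), 47% with upper-quartile scaling (807 and 910) and 36% with equal library sums (622 and 1104). Of the 1853 genes, 1191 kept their call when each single library in turn was left out of the fit. Other list counts of 1 or 2 that moved by over 1.5 times without a single library were then 0, 1 or 2. Of 709 chemosensory receptor genes, which are not known for a role in these cells, 3 fell and none rose. No gene of the list fell without naive replicate 1 or 3 or with the 6 libraries alone, and otherwise 5 to 22 fell when 1 library was left out, 14 without naive replicate 2 and 22 without SR59230A-treated replicate 1. Without the linear relations as terms 41 fell. Vmn1r9, 1 of the 3 that passed with those terms, had a log2 change of -1.89 ± 0.51, and the lowest of the 709 was -2.08. The chemosensory receptor genes held 0.149% to 0.179% of the naive and 0.106% to 0.12% of the EAE libraries, ranges that did not overlap. With that share as a term, which cannot be told apart from the group, 100 genes passed, 77 of them among the 1853. Falls then went from 11 to 1 for stem-cell transcription factor genes and from 11 to 0 for early lymphoid genes. Rises went from 21 to 0 for G2/M and mitosis genes, from 10 to 3 for monocyte genes and from 8 to 5 for azurophil granule genes. Ms4a3, Elane, Ctsg, Prtn3, Mpo, Ccr2, F13a1, Clec5a, Igsf6, Trem3, Card9, Hp, Csf1r, Selp, Rrm2, Hlf, Angpt1, Car2, Gem and Gria2 passed under every alternative run, that term and the left-out libraries included.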

How the data were processed

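RNA was measured in 9 LSK libraries, 3 per group, of which 6 are compared here. RNA was extracted with the RNeasy micro kit, per the labels' protocols. The authors deposited 1 table of 14940 genes whose values were adjusted by a step not described in the labels and rounded to whole numbers, so they are treated as a score and not as counts. The natural log of value + 1 obeys 2 linear relations across libraries, down to rounding. DESeq2 is named in the submitters' processing notes, with neither version nor role. The aligner, genome build, annotation and strand setting were not given in the sources used here. Values of antisense, overlapping and near-identical genes are therefore uncertain. Because the deposited values are not counts, no count test was run.

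Scaling was by the median of ratios to the geometric means. Genes were kept at a deposited value of at least 10 in 3 libraries (13018 genes). They were tested as log2(value + 1) with limma-trend (limma 3.58.1, R 4.3.3). The fit used all 9 libraries, group coefficients and the 2 linear relations as terms, which left 4 residual degrees of freedom, with 2-sided p-values under Benjamini-Hochberg adjustment at 0.05. The estimates of fold change were checked on simulated data with normal noise, a check that set no limit on false calls. The 57 gene lists and the genes described were chosen with earlier results of these data known. Genes were named by rule: the 15 largest rises and falls among genes called with a group mean of at least 100 and no overlap of the libraries, and the 10 smallest adjusted p in each direction. From each list, the called member with the largest change in each direction was named, with others needed to describe it. Promoters came from RefSeq (GRCm38.p6). Alternatives changed the scaling, pseudocount, filter, terms, libraries and prior. A run described as without a library left it out of the filter on low values and the fit, with 1 linear relation kept as a term. The fit to the 6 libraries alone kept the 2 relations found across all libraries and left 2 residual degrees of freedom. A few genes of the lists are not reported here by name.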

Additional observations from a re-analysis of the deposited data

How the results depend on the processing

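Against 1853 called genes (1189 higher, 664 lower), 1059 genes passed (606 higher, 453 lower) without scaling, 1726 genes passed (622 higher, 1104 lower) with equal library sums, 3485 genes passed (2062 higher, 1423 lower) without the linear relations as terms, 100 genes passed (65 higher, 35 lower) with the chemosensory share as a term and 778 genes passed (442 higher, 336 lower) without a trend in the prior. The other scalings, pseudocounts, filters and the 6 libraries alone stayed within 1.5 times of these 3 counts, between 1360 and 1890 called genes. Leaving 1 library at a time out of the fit gave 1236 to 2622 called genes, 808 to 1639 of them higher and 428 to 983 lower. The fewest came without naive replicate 1 and the most without EAE replicate 3. Of the 1853 genes, 67 kept their call in every alternative and 618 in every one but the chemosensory term. No paired analysis was possible because the labels give the groups no shared replicate numbers, and the numbers used here follow accession order. The depth is unknown, so low genes have no floor. With the chemosensory share as a term, the log2 changes of these named genes changed sign: Arrb1 to 0.079, Atf3 to -2.77, Cdh5 to 0.85, Cx3cr1 to -0.42, Fn1 to 1.08, Fos to -1.81, Hspa5 to -0.64, Kat2a to -0.40, Klf6 to -0.77, Ly6a to -0.14, Sele to 0.54, Tlr4 to 0.45, Trem1 to -0.21, Uqcrq to -0.0038. Without 1 library the change of Il7r ran from -0.32 to 0.40, the latter without EAE replicate 2. Further sign changes were Dntt to -0.038 with quantile normalization, Il7r to 0.010 with the 6 EAE and naive libraries alone. In the 100 bases before the start, GAGGAA stood in 3 of 9 azurophil granule genes (3 of their 10 entries, against 9.8% of all entries) in place of 7. The cause was not tested.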

Other observations

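Genes of the imprinted Dlk1-Meg3 domain, singled out after their values were seen, rose in all 3 EAE mice. Meg3, a maternally expressed long non-coding RNA of that domain, was at 126, 148 and 127 in naive and 525, 529 and 870.3 in EAE libraries (2.23 ± 0.19). Its neighbour Rian was at 42.6, 67.3 and 49.8 and 330.5, 245 and 511 (2.72 ± 0.25), and Dlk1, the paternally expressed protein gene, at 17.2, 12.3 and 26.3 and 138, 87 and 160.5 (2.75 ± 0.30). EAE replicate 3 was the highest library for each of them. Peg13, Sgce and Igf2r, 3 imprinted genes of other domains picked in the same way, fell: Peg13 from 2030, 2018 and 1802 to 1102, 1152 and 1164 (a log2 change of -0.78 ± 0.09), Sgce by -0.76 ± 0.15 and Igf2r by -0.54 ± 0.14 on the same scale, the last of which was lost with the 6 libraries alone.

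Of 7 tested genes of the GIMAP family of lymphocyte GTPases, a family also chosen after its values were seen, 5 fell and none rose. Gimap6, the most abundant of those named here, was at 3093, 2846 and 2839 in naive and 1400, 1129 and 1589 in EAE libraries, a log2 change of -1.11 ± 0.12. Gimap1 and Gimap5 fell, with log2 changes of -1.03 ± 0.24 and -1.39 ± 0.23, and EAE replicate 2 was the lowest EAE library for these 3 genes.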
